A study of Mus musculus with 2 samples.

Results

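The cells described here are the neutrophils of the aneurysmal abdominal aorta that held the largest share of transcripts from S100a8 and S100a9, the genes of the calprotectin subunits. A kept cell had at least 500 UMIs (transcript molecules counted by their molecular tag), at least 250 genes and at most 25% of UMIs from mitochondrial genes. A kept cell was taken as a neutrophil when at least 3 of Csf3r, Cxcr2, Il1r2, S100a8, S100a9, Mmp9, Hdc and Acod1 had a UMI. It could hold at most 2 UMIs of C1qa, C1qb and C1qc together and at most 2 of Col3a1. The neutrophils of both libraries were ranked together by the share of their UMIs that came from S100a8 and S100a9, and the highest-ranked 1 in 3 were taken. That gave 846 cells, called S100-high cells below, of 2539 neutrophils and 16403 kept cells. The other 1693 are called the remaining neutrophils, of which the 846 ranked next are the middle-ranked and the 847 after them the lowest-ranked neutrophils.

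The series holds 2 single-cell libraries of mouse abdominal aorta made on the BD Rhapsody platform, 1 for each genotype. Both groups carried an abdominal aortic aneurysm induced by PPE, an abbreviation that stands in this field for porcine pancreatic elastase. The control group was C57BL/6J (WT), and the other group carried a global Gsdme deletion (Gsdme-KO). Aortas were taken apart with collagenase I together with DNase I, and red cells were lysed. The number, age and sex of the mice behind each library, the part of Gsdme that was deleted and the day of collection are not given in the sources used here. With 1 library per group no difference between the genotypes has a replicate check, and no test was run. Levels are in CPM, the UMIs of a gene per 1000000 UMIs of the cells summed, without scaling by gene length, and carry exact 95% Poisson intervals. Ratios of levels carry exact conditional binomial intervals, and shares of cells exact Clopper-Pearson intervals. All of these intervals cover counting error only.

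Neutrophils are short-lived granulocytes that leave the bone marrow with their granules already filled. Calprotectin, the heterodimer of S100A8 and S100A9, is the most abundant protein of their cytosol and binds calcium, zinc and manganese. The granules are named by when they form: primary granules hold myeloperoxidase and elastase, secondary granules hold lactoferrin, lipocalin 2 and collagenase, and gelatinase granules hold MMP9. Transcripts of granule proteins are made in the marrow and decline as the cell matures and enters tissue.

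The libraries held 38988898 UMIs over 7736 barcodes in WT and 52532964 UMIs over 9034 barcodes in Gsdme-KO. S100-high cells were shallow: their median was 1639.5 UMIs and 776.5 genes in WT and 1465.5 UMIs and 710.5 genes in Gsdme-KO. The remaining neutrophils had medians of 1769.5 and 1727 UMIs. Mitochondrial genes took a median 0.360% and 0.416% of the UMIs of S100-high cells. The summed UMIs behind every S100-high value were 727206 in WT and 684754 in Gsdme-KO. In all, 73 barcode sequences occurred in both libraries, and none of them was an S100-high cell in both.

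The label was checked against neutrophil markers that the selection did not use (Mmp8, Retnlg, Ly6g, Trem1, Cd177, Mxd1, Clec4d and Fpr1). At least 3 of these 8 had a UMI in 82.2% of WT and 85.3% of Gsdme-KO S100-high cells, against 58.6% and 62.8% of the remaining neutrophils. Ly6g, the usual surface marker of mouse neutrophils, had 8 UMIs in WT and 2 in Gsdme-KO. The primary granule genes Mpo, Elane and Prtn3 had at most 1 UMI each in either library, and Ctsg, Prss57 and Ms4a3 had none. Markers of other cell types were also present. At least 3 of 14 macrophage markers had a UMI in 22.9% (18.9 to 27.3) of WT and 13.3% (10.3 to 16.9) of Gsdme-KO S100-high cells, with a summed level of 1238 and 909.8 CPM. Macrophage barcodes, those with at least 10 UMIs of the C1q genes and at most 2 of Col3a1, were deeper, with medians of 6866.5 and 7268 UMIs. The 9 dendritic cell markers summed to 1338 CPM in WT against 565 CPM in Gsdme-KO. Of these 9, 6 had a UMI in WT and 7 in Gsdme-KO, with Xcr1 and Clec9a at 0 in both. At least 3 had a UMI in 5.61% of WT and 3.44% of Gsdme-KO S100-high cells. The 8 fibroblast markers summed to 920.0 and 951 CPM, and at least 3 had a UMI in 13.7% and 10.3% of S100-high cells. Col3a1 had a UMI in 26.1% and 26.6%. The 8 T and NK cell markers summed to 15.1 and 10.2 CPM, and the 7 mast cell and basophil markers to 0 and 2 UMIs.

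S100-high cells made up 410 of the 1270 WT neutrophils, 32.3% (29.7 to 34.9), and 436 of the 1269 Gsdme-KO neutrophils, 34.4% (31.7 to 37.0). The ratio was 1.06 (0.928 to 1.22). Of all kept cells they were 5.38% (4.89 to 5.91) in WT and 4.96% (4.52 to 5.44) in Gsdme-KO, a ratio of 0.922 (0.804 to 1.06). Both intervals held 1. Neutrophils as a whole were 16.7% and 14.4% of kept cells, a ratio of 0.867 (0.801 to 0.938). Their counts were nearly equal, at 1270 and 1269, while kept cells numbered 7619 in WT and 8784 in Gsdme-KO. Fibroblast barcodes numbered 788 and 1612, and macrophage barcodes 2092 and 2067. Shares of kept cells thus depend on the other cells recovered, and a change in neutrophil number was not tested. The middle-ranked neutrophils had a ratio of 0.774 (0.675 to 0.888) as a share of kept cells. As a share of neutrophils their ratio was 0.893 (0.779 to 1.02), whose interval held 1.

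The share of UMIs from S100a8 and S100a9 declined without a gap at the selection limit. The last S100-high cell had 0.6539% and the first cell outside had 0.6529%, and the 20 cells on either side had medians of 0.665% and 0.644%. Within the S100-high cells the median was 1.18% in WT and 1.14% in Gsdme-KO, and the highest cells reached 4.71% and 4.76%. The median cell held 20 UMIs of the pair in WT and 18 in Gsdme-KO, and 5 of the 846 cells held 5 or fewer. Among all neutrophils 290 had no UMI of either gene. Outside the neutrophils the pair took 0.00853% of the UMIs of kept cells in WT and 0.00454% in Gsdme-KO. Both genes count toward the neutrophil rule, so this share was partly set by the choice, and free RNA was not measured.

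**Figure D1:**
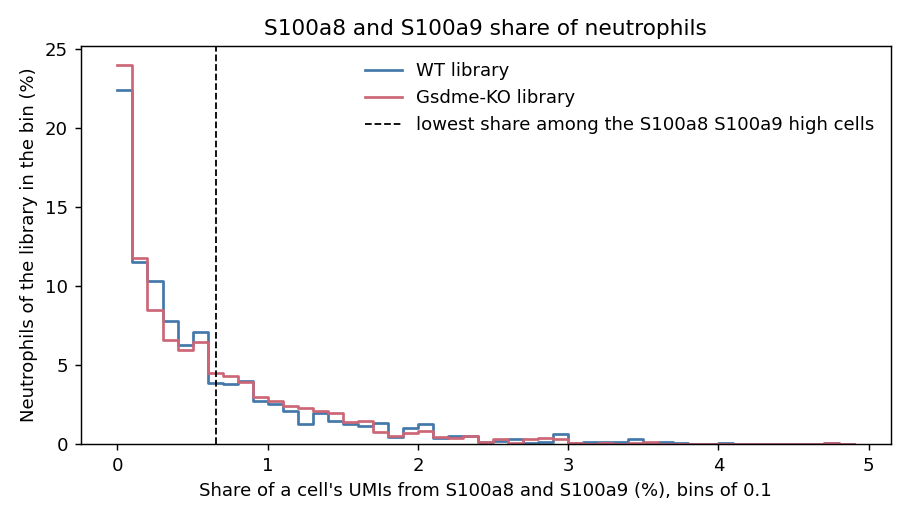
Share of each neutrophil's UMIs that came from S100a8 and S100a9 (x axis, percent, bins of 0.1) against the percent of that library's neutrophils in the bin (y axis), for WT and Gsdme-KO. The dashed line is the lowest share among the S100-high cells, 0.6539%; both libraries decline smoothly through it and reach 4.71% and 4.76%.

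Because the same counts chose the cells and gave the levels, the ranking was repeated on a random part of each neutrophil's UMIs. The levels were read in the other part. The neutrophils themselves were still those chosen on all UMIs, S100a8 and S100a9 included, so the check does not remove the effect of that step. This check was added after the data were seen. It chose 761 (90.0%) of the same cells. In the UMIs not used for the ranking the pair took 1.32% in WT and 1.19% in Gsdme-KO, against 0.231% and 0.206% in the remaining neutrophils.

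The balance within calprotectin differed between the libraries. S100a8 stood at 5770.0 CPM (5597 to 5947) in WT and 7391 CPM (7189 to 7597) in Gsdme-KO, a ratio of 1.28 (1.23 to 1.33). S100a9 stood at 8017 CPM (7813 to 8225) in WT and 5528 CPM (5353 to 5706) in Gsdme-KO, a ratio of 0.689 (0.662 to 0.718). S100a8 thus had the fewer UMIs of the pair in WT, and S100a9 in Gsdme-KO. S100a9 made up 58.1% (57.2 to 59.1) of the pair's UMIs in WT S100-high cells and 42.8% (41.8 to 43.8) in Gsdme-KO. The rule used the sum of the genes and not this part. The S100a9 part compares 1 transcript with another in the same cells, so library size does not enter it.

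The difference in balance was spread over the cells. Among S100-high cells with at least 10 UMIs of the pair, the median S100a9 part was 57.8% in 378 WT cells, with quartiles of 46.7% and 68.8%. It was 40.0% in 379 Gsdme-KO cells, with quartiles of 30.8% and 52.9%. S100a9 held over 50% of the pair in 249 (65.9%) of these WT cells and in 104 (27.4%) of these Gsdme-KO cells.

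**Figure D2:**
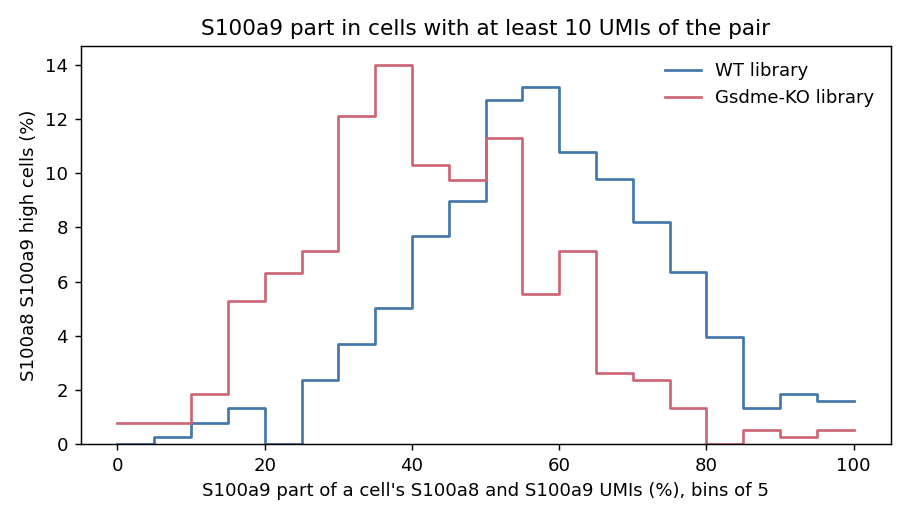
S100a9 part of the S100a8 and S100a9 UMIs of a cell (x axis, percent, bins of 5) against the percent of S100-high cells with at least 10 UMIs of the pair (y axis), for 378 WT and 379 Gsdme-KO cells. The distributions overlap, with medians of 57.8% in WT and 40.0% in Gsdme-KO.

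The difference had the same direction in cells that the selection left out. S100a9 made up 59.8% (58.0 to 61.5) of the pair in the middle-ranked WT neutrophils and 36.8% (35.0 to 38.6) in Gsdme-KO. In the lowest-ranked neutrophils the values were 59.6% (55.4 to 63.8) and 39.2% (35.1 to 43.4). In macrophage barcodes, where the pair took under 0.01% of UMIs, they were 55.4% (51.7 to 59.0) and 32.4% (28.3 to 36.6). In fibroblast barcodes, also under 0.01% of UMIs, they were 54.1% (48.7 to 59.5) and 45.9% (42.1 to 49.9), with intervals that overlapped. In all these groups the S100a9 part was lower in Gsdme-KO, so the difference was not particular to the S100-high cells. The part of free RNA in the macrophage and fibroblast values was not tested.

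The other S100 genes that neutrophils carry were higher in Gsdme-KO S100-high cells. S100a6 stood at 1205 and 1469 CPM, a ratio of 1.22 (1.11 to 1.34), and S100a11 at 1547 and 2123 CPM, a ratio of 1.37 (1.27 to 1.48). S100a4, a calcium-binding protein of monocytes and macrophages, stood at 17.9 and 11.7 CPM against 118 and 165 CPM in the remaining neutrophils.

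The genes S100a8 and S100a9 lie side by side on chromosome 3, at 90668978 to 90670035 on the plus strand and 90692632 to 90695721 on the minus strand (GENCODE M21, GRCm38). The sequences just before their start sites are printed because the pair defines the cells and its members differed in opposite directions between the libraries. Sequence and start sites are from RefSeq, build GRCm38.p6, 5′ to 3′ on the gene's strand. Capitals mark the motifs searched: GAGGAA on either strand, the core bound by PU.1, an ETS factor of myeloid cells, which reads TTCCTC on the other strand, and TATAAA on the gene's strand between 50 and 15 bases before the start. Of 27025 mouse promoter windows of 250 bases, 23.1% hold GAGGAA on either strand and 2.67% hold TATAAA in that place. Stretches that GENCODE lists as untranslated region were left out, except in the near stretch of S100a8. That stretch was taken as the 30 bases around TATAAA and lies within the GENCODE span of the gene. The S100a8 stretches are chr3:90668821-90668977 and chr3:90669029-90669058, and the S100a9 stretch is chr3:90695722-90695971.
S100a8 far: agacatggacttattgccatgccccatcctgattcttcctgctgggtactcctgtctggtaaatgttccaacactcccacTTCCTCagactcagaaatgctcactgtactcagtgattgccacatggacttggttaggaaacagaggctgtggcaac
S100a8 near: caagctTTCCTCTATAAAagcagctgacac
S100a9: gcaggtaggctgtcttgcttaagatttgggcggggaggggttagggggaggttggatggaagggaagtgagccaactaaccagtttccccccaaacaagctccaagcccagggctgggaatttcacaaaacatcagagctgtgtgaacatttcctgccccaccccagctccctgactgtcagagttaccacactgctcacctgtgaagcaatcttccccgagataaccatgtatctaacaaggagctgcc
The S100a8 window held GAGGAA on the opposite strand at -170 and -36 and TATAAA at -30, counted from the start site. The S100a9 window held neither string. A match is a string of letters and says nothing on its own about binding.

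Secondary granule genes were more often higher than lower in S100-high cells against the remaining neutrophils, and other granule genes were mixed. These values are a description, since the same cells were chosen by 2 of their transcripts. Of the measured secondary granule genes, 6 of 10 in WT and 7 of 9 in Gsdme-KO were at least 1.5 times as high, where 5.50% and 6.81% of all genes were. As much lower were 1 in WT and 2 in Gsdme-KO, where 36.6% and 40.9% of all genes were. Of 11 maturation genes 5 and 6 were at least 1.5 times as high and 1 and 2 as much lower, and of 8 gelatinase granule genes 3 were higher in each library and none as much lower. Ltf, lactoferrin, had a UMI in 2.20% and 1.83% of S100-high cells against 6.74% and 5.28% of the remaining neutrophils, and Mmp9 in 55.9% and 48.4% against 55.1% and 51.9%. Retnlg, a resistin-like secreted protein of marrow neutrophils, stood at 443 CPM (396 to 494) in WT and 672 CPM (612 to 736) in Gsdme-KO S100-high cells. In the remaining neutrophils it stood at 53.5 and 106 CPM. Mmp8, the neutrophil collagenase of secondary granules, stood at 259.9 CPM (224 to 299.7) and 565 CPM (510.3 to 624), against 36.4 and 98.2 CPM. Lcn2, which sequesters bacterial siderophores, stood at 276 CPM (239.5 to 317) and 587 CPM (531 to 647), against 34.2 and 124 CPM. The ratios over the remaining neutrophils were 8.28 and 6.32 for Retnlg, 7.15 and 5.76 for Mmp8, and 8.08 and 4.75 for Lcn2, in WT and Gsdme-KO. For each of the 3 genes the intervals of all 4 groups of cells were apart.

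Fpr1, the receptor for bacterial formyl peptides, stood at 873 and 1073 CPM against 185 and 263 CPM in the remaining neutrophils, ratios of 4.72 and 4.09. Cxcr2, the receptor that draws neutrophils to CXCL1 and CXCL2, was among the 8 genes that chose the neutrophils and stood at 2049 and 2675 CPM against 912 and 1084 CPM. Other genes at least 3 times as high in both libraries were Wfdc21, Stfa2l1 and Cstdc4 (a whey-acidic protein and stefin-type protease inhibitors), the lipid genes Dgat2 and Slc27a4, Rdh12, Lrg1 and Crispld2. The Stfa and Cstdc genes are near-identical copies, so their reads may be shared between them.

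Over the whole table, 205 of 5750 genes measured in both libraries (3.57%) were at least 1.5 times as high in S100-high cells as in the remaining neutrophils in both libraries, and 1450 (25.2%) were at least 1.5 times lower. A gene counted as measured when its higher side had at least 30 UMIs and 10 CPM. In WT alone 5.50% of 6146 genes were higher and 36.6% lower, and in Gsdme-KO 6.81% of 6196 genes were higher and 40.9% lower. The median log2 ratio over these genes was -0.37 in WT and -0.40 in Gsdme-KO. The lower genes were led by transcripts of monocytes and macrophages: Msr1, a scavenger receptor, Ccr2, the monocyte receptor for CCL2, Ms4a6c, Ms4a6d, Ctss, Ccl9, Vcan, Pld4 and the MHC class II gene H2-Ab1. Ctss, for example, stood at 312 and 266 CPM against 1061 and 1179 CPM in the remaining neutrophils.

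Beside these lower genes stands the makeup of the remaining neutrophils. Their 8 monocyte markers summed to 1674 CPM in WT against 1935 CPM in Gsdme-KO, against 524 and 688 CPM in the S100-high cells, and their 6 B cell markers to 1194 and 3366 CPM against 118 and 115 CPM. Alternatives added after the data were seen gave other counts. Against the middle-ranked neutrophils alone, 87 genes were higher and 207 lower. Vcan, at 0.192 and 0.245 times the remaining neutrophils, stood at 2.52 and 1.39 times once cells with at least 3 macrophage markers were left out of both sides. Retnlg, Mmp8, Lcn2, Fpr1 and Wfdc21 kept ratios of at least 2.32 in each library against the middle-ranked neutrophils.

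Receptors that sense microbes and damage were often higher in S100-high cells. Of 17 receptors for pathogens and damage, 9 in WT and 11 in Gsdme-KO were at least 1.5 times as high as in the remaining neutrophils, beside the 5.50% and 6.81% of all genes. The median log2 ratio was 0.63 and 0.64. Against the middle-ranked neutrophils alone it was smaller, at 0.29 in WT and 0.24 in Gsdme-KO. Fpr2, which senses formyl peptides and serum amyloid A, stood at 492 and 672 CPM against 179 and 297 CPM, and Tlr2, the lipoprotein receptor, at 1339 and 1294 CPM against 748 and 677 CPM. Nlrp3, the inflammasome sensor, stood at 8942 and 8938 CPM against 6102 and 5917 CPM. Genes of neutrophils that have adapted to tissue lay near the general shift, with medians of -0.56 and -0.49 beside -0.37 and -0.40 over all genes. Of 16 and 15 measured genes, 7 and 6 were at least 1.5 times lower, where 36.6% and 40.9% of all genes were. Siglecf stood at 70.1 and 73.0 CPM against 111 and 88.5 CPM, and Icam1 at 1187 and 1364 CPM against 1754 and 1740.3 CPM.

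Levels were also read along the whole ranking, in 10 steps of 253 or 254 neutrophils of both libraries together. Retnlg went from 60.0 CPM (40.5 to 85.7) in the lowest step to 420.0 CPM in step 9 and 1159 CPM in step 10. Mmp8 went from 36.0 to 361 and 759 CPM over the same steps. Hdc, which makes histamine and was among the 8 neutrophil genes, stood at 1261 CPM in the lowest step, 467 CPM in step 2 and 3399 CPM in step 10. Retnlg and Mmp8 were highest in step 10, though Mmp8 did not climb evenly and stood at 119.8 CPM in step 4 and 44.0 CPM in step 5. Wfdc21 differed less at the top, with 101 CPM in step 9 and 130.1 CPM in step 10. In the other direction Cd63, a membrane protein of granules and lysosomes, stood at 386 CPM in the lowest step and 214 CPM in the highest. Siglecf stood at 140.1 and 43.4 CPM, but not along a steady course, with 49.5 CPM (36.9 to 65.1) in step 2 and 125 CPM in step 7. Il1b, at 16939.9 and 19249 CPM, differed little by comparison between the end steps, and stood at 12174 CPM in step 2.

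**Figure D3:**
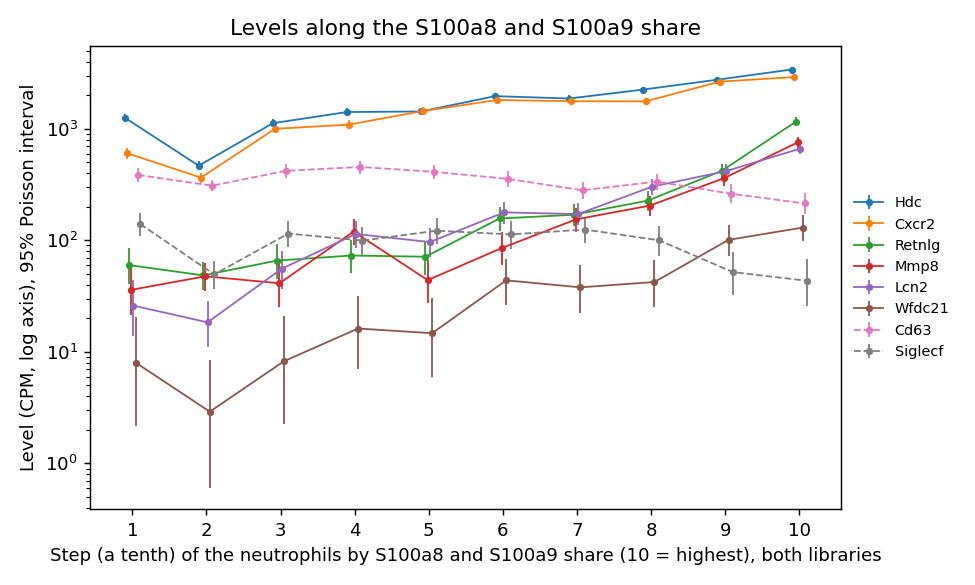
Level of 8 genes (y axis, CPM, log axis, points with 95% Poisson intervals) in each of 10 steps of the neutrophils ranked by S100a8 and S100a9 share (x axis, step 10 is the highest), with both libraries together and points shifted sideways slightly for reading. Retnlg reaches 1159 CPM and Mmp8 759 CPM in step 10, while Siglecf (dashed, as is Cd63) is at 43.4 CPM.

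Transcripts of Mmp8, Retnlg, Lcn2 and Wfdc21 were found more often in S100-high cells of Gsdme-KO than of WT, singly and together. Singly, Mmp8 had a UMI in 14.9% and 24.8%, Retnlg in 17.8% and 28.4%, Lcn2 in 20.7% and 36.0%, and Wfdc21 in 8.29% and 11.5%. Whether they occurred together beyond these single shares was not tested. At least 2 of Mmp8, Retnlg, Lcn2 and Wfdc21 had a UMI in 54 WT cells, 13.2% (10.1 to 16.8), and in 121 Gsdme-KO cells, 27.8% (23.6 to 32.2). With every cell thinned to 500 UMIs the shares were 4.39% and 11.9%. No UMI of any of the 4 was found in 56.6% of WT and 38.8% of Gsdme-KO S100-high cells, which at this depth does not show that those cells lacked the transcripts. Among the remaining neutrophils at least 2 had a UMI in 1.40% and 6.48%. The 4 genes were among those named as highest over the remaining neutrophils, so these lower shares follow from that choice. The cells with at least 2 also had the higher calprotectin share, a median 1.65% in WT and 1.45% in Gsdme-KO against 1.06% and 0.930% in the cells with none. They were somewhat deeper, with medians of 1828 and 1642 UMIs against 1598 and 1366.

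Between the genotypes, 245 of 3417 genes measured in the S100-high cells (7.17%) were at least 1.5 times as high in Gsdme-KO and 338 (9.89%) were at least 1.5 times lower. The median log2 ratio of Gsdme-KO over WT was -0.03, and 46.3% of the genes were above 0. In the remaining neutrophils 8.13% of 6582 genes were higher and 6.61% lower. These shares are the background for the gene lists that follow. List counts cover only the measured genes, and a gene could be measured through its higher library alone.

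The targeted gene gave little information in these cells. Gsdme (chromosome 6, 50188888 to 50263862, minus strand) had 26 UMIs in WT, 35.8 CPM (23.4 to 52.4), and 15 UMIs in Gsdme-KO, 21.9 CPM (12.3 to 36.1). The ratio was 0.613 (0.302 to 1.20), so a loss could not be told at this depth. The deleted part is not given, and transcripts outside it would still be counted. The gene overlaps Mpp6 on the opposite strand, and whether the counting used strand is not given. Gsdmd, the gasdermin of inflammasome signalling, had 24 and 21 UMIs, and Gsdmc had none. Casp4, an inflammatory caspase, stood at 216 and 204 CPM. None of the 4 measured genes of this list was past 1.5 times in either direction.

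Most of the secondary granule genes that could be measured were higher in Gsdme-KO, 7 of the 15 in the list. Of 7 measured genes 6 were above WT and 5 were at least 1.5 times as high, with none at least 1.5 times lower, beside 7.17% and 9.89% of all genes. The median log2 ratio was 1.09. Mmp8 had a ratio of 2.17 (1.82 to 2.60), Lcn2 of 2.12 (1.79 to 2.53) and Pglyrp1, a peptidoglycan-binding protein, of 2.24 (1.27 to 4.09). Chil3, a chitinase-like protein that monocytes and immature neutrophils also make, stood at 48.1 CPM (33.5 to 66.9) in WT and 210.3 CPM (177 to 248) in Gsdme-KO, a ratio of 4.37. Hp, haptoglobin, differed less, at 184 and 209 CPM, and Lyz2 was the gene below WT, at 1704 and 1551 CPM. Ltf, Camp and Ngp, the classical late marrow granule genes, had 4 to 22 UMIs in each library and were not measured. They showed no rise in cells with a UMI: 2.20%, 0.976% and 0.976% in WT and 1.83%, 0.917% and 0.917% in Gsdme-KO.

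The higher granule levels came from more cells as well as more UMIs. Lcn2 had a UMI in 20.7% of WT and 36.0% of Gsdme-KO S100-high cells, and Mmp8 in 14.9% and 24.8%. Chil3 had a UMI in 2.93% and 9.40%, and the 5 cells richest in it held 80.0% of its WT UMIs and 48.6% of its Gsdme-KO UMIs. For Mmp8 the 5 richest cells held 34.4% and 26.4%. The remaining neutrophils differed in the same direction, with ratios of 2.70 (2.03 to 3.62) for Mmp8, 3.61 (2.73 to 4.84) for Lcn2 and 2.89 (2.10 to 4.05) for Chil3, so these differences were not particular to the S100-high cells. With no UMI of the C1q genes or Col3a1 allowed in a neutrophil, the list median was 0.50, and with no floor on low counts it was 0.37.

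**Figure D4:**
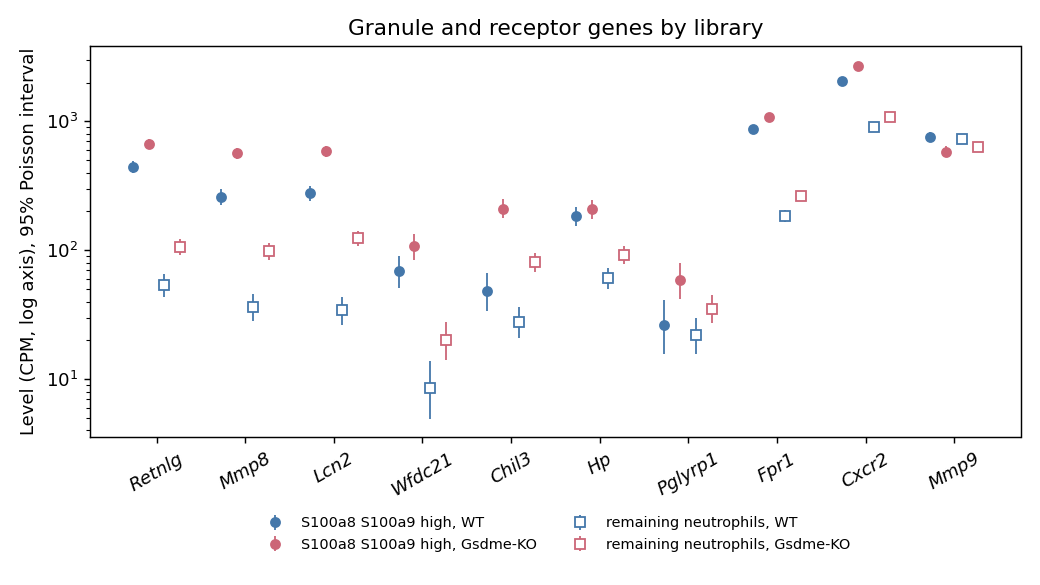
Levels of granule and receptor genes (y axis, CPM, log axis, 95% Poisson intervals) in S100-high cells (filled circles) and the remaining neutrophils (open squares) of WT and Gsdme-KO. Retnlg, Mmp8, Lcn2, Wfdc21 and Chil3 are above WT in Gsdme-KO in both kinds of cells, while Mmp9 is below it.

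The promoter of Mmp8 is shown beside those of the calprotectin pair because the gene was among the highest in the S100-high cells and differed between the libraries. The gene lies on chromosome 9, 7558456 to 7568485, plus strand, and the stretch is chr9:7558179-7558428.
Mmp8: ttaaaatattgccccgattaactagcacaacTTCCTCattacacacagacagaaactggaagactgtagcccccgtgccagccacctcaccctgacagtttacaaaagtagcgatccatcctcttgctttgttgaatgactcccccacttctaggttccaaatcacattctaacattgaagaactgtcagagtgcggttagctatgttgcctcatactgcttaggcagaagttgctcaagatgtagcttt
It held GAGGAA on the opposite strand at -219 and no TATAAA between 50 and 15 bases before the start, by the same search and background as above. Of the 13 secondary granule genes with a window, 8 (61.5%) held GAGGAA, and Chil3 and Lyz2, for example, did not.

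Gelatinase granule genes did not follow the secondary granules. None of 7 measured genes was past 1.5 times in either direction, and the median log2 ratio was 0.19. Mmp9, the gelatinase that cleaves elastin and denatured collagen, stood at 758 CPM in WT against 583 CPM in Gsdme-KO, which gave a ratio of 0.769 (0.674 to 0.876). Adam8, a membrane protease, stood at 1257 and 1501 CPM, a ratio of 1.19 (1.09 to 1.31). Arg2, mitochondrial arginase, stood at 1203 and 1371 CPM, a ratio of 1.14 (1.04 to 1.25). Srgn, the proteoglycan core on which granule proteins are packed, stood at 7841 and 11614 CPM, a ratio of 1.48 (1.43 to 1.53).

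Among 11 measured maturation genes only Retnlg was past 1.5 times, with a ratio of 1.52 (1.31 to 1.75). Over the alternatives run for it, its ratio lay between 1.17 and 1.86. Cxcr2 had a ratio of 1.31 (1.22 to 1.40) and Mxd1, a MYC antagonist of terminal differentiation, of 1.17 (1.10 to 1.24). Stfa2l1 went the other way, at 294 and 222 CPM, a ratio of 0.754 (0.609 to 0.933). Csf3r, the G-CSF receptor, had a ratio of 0.954 (0.887 to 1.03), whose interval held 1.

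Of 17 receptors for pathogens and damage, 11 were above WT and 1, Mrgpra2b, was at least 1.5 times as high. The median log2 ratio was 0.15. Clec4d, a C-type lectin for mycobacterial lipids, stood at 2461 and 3244 CPM, a ratio of 1.32 (1.24 to 1.40), and Fpr2 had a ratio of 1.36 (1.19 to 1.57). Cd14, the coreceptor for lipopolysaccharide, stood at 4829 and 3801 CPM, a ratio of 0.787 (0.748 to 0.828). Nlrp3 did not differ beyond counting error, with a ratio of 0.999 (0.965 to 1.04). Of 19 cytokine and Fc receptors 1, Fcgr4, was at least 1.5 times as high, at 56.4 and 87.6 CPM. Fcer1g, the signalling chain of Fc receptors, stood at 899 and 1310.0 CPM, a ratio of 1.46 (1.32 to 1.61).

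Inflammatory mediators were mostly lower in Gsdme-KO by small amounts. Of 14 measured genes 12 were below WT and 2 above, with a median log2 ratio of -0.10, and 1 gene was at least 1.5 times lower. With edgeR's TMM scaling 8 were below and 6 above, so the direction of the smaller differences rests on the scaling. The gene past 1.5 times was Ptgs2, the inducible cyclooxygenase that makes prostaglandin precursors. It stood at 5198 CPM (5034 to 5366) in WT and 2939.7 CPM (2813 to 3071) in Gsdme-KO, a ratio of 0.566 (0.536 to 0.597), and had a UMI in 76.6% and 59.2% of cells. Over the alternatives its ratio lay between 0.523 and 0.608, and in the remaining neutrophils it was 0.628 (0.608 to 0.647).

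Il1b had the most UMIs of the mediators, at 21521 CPM in WT against 19426 CPM in Gsdme-KO, which gave a ratio of 0.903 (0.882 to 0.924). Osm, a cytokine of the interleukin 6 family, stood at 576 and 387 CPM, a ratio of 0.672 (0.574 to 0.785). Vegfa, the endothelial growth factor, stood at 375 and 254 CPM, a ratio of 0.677 (0.556 to 0.822). Tnf, at 3241 and 3172 CPM, and Acod1, which makes itaconate, at 7116 and 6997 CPM, had intervals that held 1. Hdc and Alox5ap, the activating protein of leukotriene synthesis, were the 2 genes above WT, with ratios of 1.14 (1.07 to 1.22) and 1.21 (1.07 to 1.36).

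Chemokines went both ways. Of 13 genes 3 were at least 1.5 times as high in Gsdme-KO and 1 at least 1.5 times lower, with a median log2 ratio of 0.38. Cxcl3, a CXCR2 ligand, stood at 701 and 1127 CPM, a ratio of 1.61, and was in 21.5% and 17.7% of cells. Cxcl10 and Ccl2, which draw T cells and monocytes, had few UMIs and ratios of 2.27 (1.51 to 3.47) and 1.98 (1.24 to 3.22). Ccl4, which draws monocytes and T cells, stood at 1404 CPM (1319 to 1493) and 930.3 CPM (859 to 1005). Its ratio was 0.663 (0.599 to 0.732), and it was in 39.8% and 26.1% of cells. Over the alternatives the ratio lay between 0.599 and 0.746, on both sides of the limit. In the remaining neutrophils Ccl4 had a ratio of 0.998 (0.943 to 1.06), and this difference between the cells was not tested. Cxcl1 was lower, with a ratio of 0.675 (0.565 to 0.804), while Cxcl2, the chemokine with the most UMIs, at 15213 and 15794 CPM, had a ratio of 1.04 (1.01 to 1.07).

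**Figure D5:**
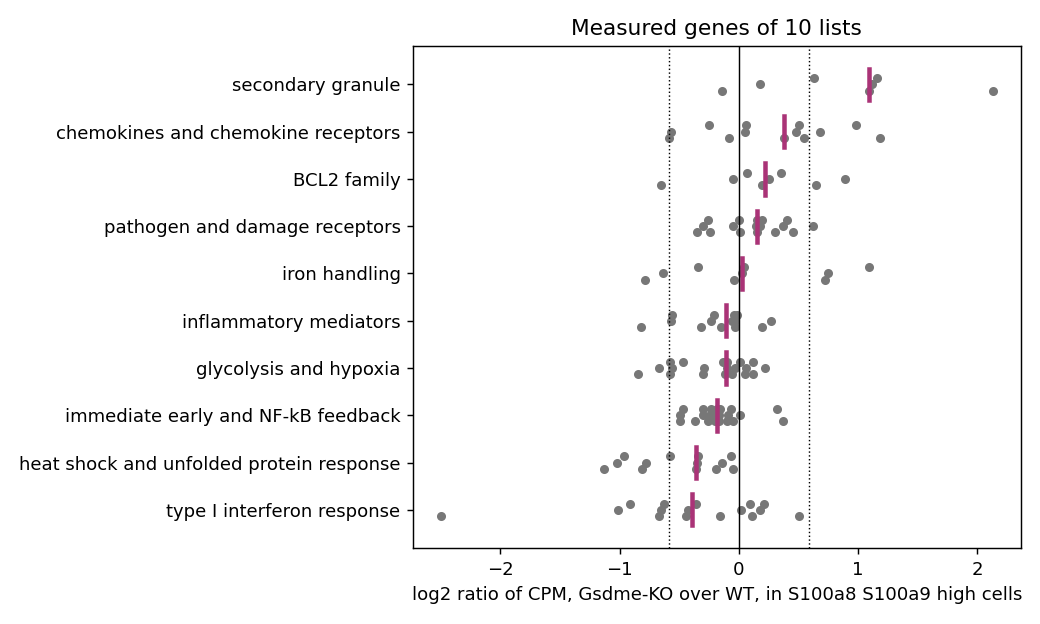
log2 ratio of Gsdme-KO over WT in S100-high cells (x axis) for each measured gene of 10 lists (grey points, spread vertically for reading), with the list median as a bar and dotted lines at 1.5 times in either direction. The secondary granule median is at 1.09, and the heat shock and type I interferon medians are at -0.36 and -0.39.

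Type I interferon response genes were few in UMIs and more often lower in Gsdme-KO. Of 16 measured genes 10 were below WT and 6 above, with 6 at least 1.5 times lower and none as much higher. The median log2 ratio was -0.39. The remaining neutrophils differed in the same direction, with 23 of 29 measured genes below WT and a median of -0.25. There 10 were at least 1.5 times lower and 1 as much higher, beside 6.61% and 8.13% of all genes. Ifit1, which binds viral RNA caps, had 48 UMIs in WT, 66.0 CPM (48.7 to 87.5), and 8 UMIs in Gsdme-KO, 11.7 CPM, a ratio of 0.177 (0.0723 to 0.377). Its 5 richest WT cells held 79.2% of those UMIs. Slfn5 had a ratio of 0.497 (0.339 to 0.718) and Ddx58, the RNA sensor RIG-I, of 0.531 (0.325 to 0.850). Slfn4, a schlafen gene of myeloid cells with the most UMIs of the list, stood at 1796 and 1325 CPM, a ratio of 0.738 (0.677 to 0.803).

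Several of these calls did not hold in other choices of cells. With no UMI of the C1q genes or Col3a1 allowed, the list median was -0.01 over 9 measured genes. Rsad2, the antiviral enzyme viperin, had a ratio of 0.644 (0.416 to 0.985) and of 1.24 in that setting. It was 1.49 with cells thinned to 500 UMIs. Isg20, Ifitm1 and Slfn1 had ratios of 1.06 (0.746 to 1.51), 1.08 (0.923 to 1.27) and 1.02 (0.841 to 1.23). Of the guanylate-binding proteins only Gbp2 was measured, at 44.0 and 48.2 CPM.

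The promoters of Ifit1 and Rsad2 are shown because both genes were past 1.5 times and hold a known interferon element. Capitals mark GAAA, any 2 bases and GAAA on either strand, the core of the interferon-stimulated response element. It reads TTTC, any 2 bases and TTTC on the other strand, and 3.04% of the 27025 promoter windows hold it. Of the 33 genes in the type I interferon list 27 had a window, and 11 of these (40.7%) held the string; Slfn4, Slfn1, Oasl2 and Ifitm1 were among the 16 that did not. The Ifit1 stretch is chr19:34640744-34640870, plus strand, and the Rsad2 stretch is chr12:26456453-26456702, minus strand.
Ifit1: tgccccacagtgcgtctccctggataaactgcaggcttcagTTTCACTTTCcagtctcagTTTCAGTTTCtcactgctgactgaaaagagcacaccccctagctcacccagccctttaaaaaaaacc
Rsad2: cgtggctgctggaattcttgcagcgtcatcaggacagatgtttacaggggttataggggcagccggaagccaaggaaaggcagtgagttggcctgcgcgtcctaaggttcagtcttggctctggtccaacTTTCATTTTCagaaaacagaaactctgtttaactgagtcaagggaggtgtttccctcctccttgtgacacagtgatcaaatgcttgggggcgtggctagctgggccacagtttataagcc
Ifit1 held the string at -104 and -85 and Rsad2 at -120, all on the opposite strand.

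Heat shock and unfolded protein genes were lower in Gsdme-KO. All 13 measured genes were below WT and 5 were at least 1.5 times lower, beside 9.89% of all genes, with a median log2 ratio of -0.36. With TMM scaling Hspa1a alone was above WT, and under other choices of cells at most 3 of Hspa1a, Hsp90b1, Xbp1 and Dnaja1 were. Hspa8, the constitutive chaperone HSC70, stood at 608 CPM (552 to 667) in WT and 277 CPM (239 to 319.9) in Gsdme-KO, a ratio of 0.457 (0.383 to 0.542), and had a UMI in 46.8% and 28.9% of cells. Hsp90aa1 stood at 889.7 and 439.6 CPM, a ratio of 0.494 (0.429 to 0.567), and Hsp90ab1 at 487 and 283 CPM, a ratio of 0.582 (0.486 to 0.695). Hspa5, the chaperone of the endoplasmic reticulum, stood at 1203 and 938 CPM, a ratio of 0.779 (0.703 to 0.864). Hspa1a sat in few cells, with 74.9% of its WT UMIs and 95.4% of its Gsdme-KO UMIs in 5 cells. In the remaining neutrophils the list median was -0.21, and Hspa8 had a ratio of 0.647 (0.600 to 0.698).

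Immediate early and NF-kB feedback genes were lower by small amounts. Of 22 genes 19 were below WT and 3 above, none was past 1.5 times, and the median log2 ratio was -0.19. Over the alternatives the median lay between -0.23 and -0.13. It was -0.16 in the remaining neutrophils, where 18 of 22 genes were below WT. Fos stood at 1580.0 and 1123 CPM, a ratio of 0.711 (0.648 to 0.779), Dusp1, a phosphatase of MAP kinases, at 3453 and 2486 CPM, a ratio of 0.720 (0.676 to 0.766), and Junb at 2390.0 and 1947 CPM, a ratio of 0.815 (0.758 to 0.875). Nfkbia, the inhibitor of NF-kB, stood at 7917 and 7024 CPM, a ratio of 0.887 (0.854 to 0.922). Egr2 and Egr3 were above WT, with ratios of 1.29 (0.906 to 1.85) and 1.25 (1.05 to 1.47).

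Glycolysis and hypoxia genes had a median log2 ratio of -0.11, with 14 of 20 below WT and 2 at least 1.5 times lower. Those were Tpi1, triose phosphate isomerase, with a ratio of 0.556 (0.377 to 0.810) and Ldha, lactate dehydrogenase A, at 253 and 159 CPM, with a ratio of 0.629 (0.492 to 0.802). Slc2a1, the glucose transporter GLUT1, had a ratio of 0.678 (0.525 to 0.872). Gapdh and Pgk1 had ratios of 0.917 (0.813 to 1.03) and 0.933 (0.785 to 1.11). The list median was -0.24 in the remaining neutrophils, where 18 of 21 measured genes were below WT.

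Iron genes were split. Fth1, the ferritin heavy chain that stores iron, stood at 10852 CPM (10614 to 11095) in WT and 17871 CPM (17555 to 18190.1) in Gsdme-KO, a ratio of 1.65 (1.60 to 1.69). Over the alternatives the ratio lay between 1.54 and 1.71, and in the remaining neutrophils it was 1.62 (1.59 to 1.66). Ftl1, the light chain, had a ratio of 1.03 (0.958 to 1.10). Bach1, a heme-responsive repressor of ferritin and heme oxygenase genes, stood at 362 and 232 CPM, a ratio of 0.642 (0.524 to 0.785). Tfrc, the transferrin receptor, stood at 63.3 and 36.5 CPM, a ratio of 0.577 (0.340 to 0.959). Over the alternatives Bach1 lay between 0.455 and 0.727 and Tfrc between 0.366 and 0.843, so neither call held in every setting. Hmox1, heme oxygenase, had a ratio of 1.02 (0.886 to 1.18). In the 9 measured genes, which include Lcn2, 3 were at least 1.5 times as high and 2 as much lower.

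Of 8 measured BCL2 family genes 2 were at least 1.5 times as high and 1 as much lower. Bcl2a1b, one of the A1 survival genes, stood at 289 CPM (251 to 331) and 534 CPM (481 to 592), a ratio of 1.85 (1.56 to 2.20). Its near-identical copies Bcl2a1a and Bcl2a1d had ratios of 1.19 (0.928 to 1.53) and 1.14 (0.906 to 1.44), and reads may be split between the 3. Bcl2l11, the death activator BIM, had a ratio of 1.28 (1.16 to 1.41), and Mcl1, on which neutrophil survival depends, of 1.05 (0.997 to 1.11). Pmaip1, the death activator NOXA, stood at 82.5 and 52.6 CPM, a ratio of 0.637 (0.409 to 0.979).

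Of 11 measured genes of the NADPH oxidase and antioxidant list 2 were at least 1.5 times as high, both enzymes that reduce peroxides. Prdx5 had a ratio of 1.51 (1.34 to 1.70) and Gpx1 of 1.51 (1.16 to 1.96). Both lay close to the limit, and over the alternatives Prdx5 lay between 1.26 and 1.57 and Gpx1 between 1.23 and 2.05. The oxidase subunits Cybb and Ncf1 had ratios of 0.997 (0.786 to 1.27) and 1.08 (0.977 to 1.20). Of 15 actin and migration genes only Tmsb4x, which binds free actin, was past 1.5 times, at 4409 and 6731 CPM, a ratio of 1.53 (1.46 to 1.60). Of 12 adhesion genes none was past 1.5 times. Padi4, the enzyme that citrullinates histones in extracellular trap formation, had 26 and 15 UMIs. The cycling genes Top2a, Cdk1 and Ccnb1 had at most 6 UMIs each in either library, and Mki67 had 72 in WT and 36 in Gsdme-KO.

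The 12 genes named in each direction, ranked by the end of the interval nearest 1, included several outside these lists. Higher in Gsdme-KO were Fgfr1, a growth factor receptor, with a ratio of 9.16 (4.40 to 22.1), Nktr, a cyclophilin of natural killer cells, with 3.25 (2.54 to 4.19), Ldlrad4, an inhibitor of TGF-beta signalling, with 3.13 (2.15 to 4.65), Pold4, AA467197, Prnp, Stap1, Sh3bp5 and Ublcp1. Of the 69 Fgfr1 UMIs in Gsdme-KO, 69.6% sat in 5 cells, whereas those of Nktr were spread, with 14.3% in 5 cells and a UMI in 30.3% of cells. Lower in Gsdme-KO were Usp1, a deubiquitinase, with 0.193 (0.0878 to 0.382), Slc8a1, Utp4, Sntb2 and Havcr2. Havcr2, which encodes the inhibitory receptor TIM-3, had a ratio of 0.467 (0.364 to 0.594). Of the WT UMIs, 54.5% for Usp1 and 56.9% for Slc8a1 sat in 5 cells. The remaining neutrophils had ratios of 0.729 (0.538 to 0.984) for Usp1 and 0.869 (0.703 to 1.07) for Slc8a1. Vmn2r96, Tpm3-rs7 and Depdc5 were also lower, with ratios of 0.00940, 0.107 and 0.393. In the remaining neutrophils these 3 stood at 111 and 0.539, 354 and 39.4, and 451 and 137 CPM in WT and Gsdme-KO.

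H2-Eb1, an MHC class II gene of antigen-presenting cells, was among the lower genes, at 314 CPM in WT against 112 CPM in Gsdme-KO, which gave a ratio of 0.359 (0.273 to 0.466). In WT 57.9% of its UMIs sat in 5 cells. Without cells holding more than 2 UMIs of H2-Aa, H2-Ab1, H2-Eb1 and Cd74, which left 355 and 405 S100-high cells, its ratio was 0.823. Apoe, an apolipoprotein at 8893 CPM in macrophage barcodes of the higher library, stood at 320.4 and 175 CPM, a ratio of 0.547 (0.435 to 0.685). Of 7 measured macrophage markers all were below WT and 4 at least 1.5 times lower, with a median log2 ratio of -0.75. Beside them stand the shares of cells with at least 3 macrophage markers given above, 22.9% and 13.3%. Without those cells, which left 316 and 378 S100-high cells, Ifit1 had a ratio of 0.0858 and Fgfr1 of 4.84, and the secondary granule median was 0.85.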

How the data were processed

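CASAVA 1.8, STARsolo and the mm10 build are given, without roles, per the submitters' processing notes, and the libraries were made on the BD Rhapsody platform, per the labels' protocols. The authors deposited a matrix of whole-number counts per gene and barcode for each library, with no barcode under 500 counts. These counts are read here as UMI counts, which no header states. All 31253 deposited features were used, of which 31184 IDs were found in GENCODE M21, and 418 of the 424 genes in the 24 lists and 14 marker lists were matched by symbol. The members, gene lists and comparisons were chosen with earlier results of these data known.

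Cells were selected and ranked as the report states, and samples were grouped by the genotype in their labels. Counts were summed per library over the S100-high cells and over the remaining neutrophils, with Python 3.11.15, numpy 2.4.6 and scipy 1.17.1. A gene was measured with at least 10 CPM and 30 UMIs on the higher side, and was called at a ratio of at least 1.5. Counts for Gsdme-KO over WT in the S100-high cells were simulated as Poisson sums, with no spread between cells or libraries. The intervals are built for such counts, so the results cover counting error only and give no error rate for the real calls. Of the intervals over 3345 genes, 95.4% held the ratio simulated. Of unchanged genes 5.18% were past 1.5 times. The interval lay on the right side of 1 for 70.1% of genes changed 1.5 times and 95.5% of genes changed 2 times.

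Genes were named in each direction, 12 at most, from genes with 50 UMIs or more, detected in 5% of cells or more of the higher library, past 1.5 times, and at no less than 10% of the level in the cell group richest in the gene. They were ranked by the end of the interval nearest 1. In the lists the highest, the lowest and the 2 genes with the most UMIs were named, and for granule, interferon and gasdermin lists every measured gene could be; any other list gene was chosen after its values were seen. Gene models and ribosomal, mitochondrial, haemoglobin, immunoglobulin, T cell receptor and sex-linked genes were left out. A few list genes are not reported here.

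Scrublet in scanpy 1.11.5 called 0 doublets among 7619 cells in WT and 1 among 8784 in Gsdme-KO, so it had not worked, and the 5% of cells with the highest scores were left out as an alternative. These were 358 and 436 cells, of which 4 and 1 were S100-high. Of the barcodes found in both libraries, 2 were neutrophils. Other alternatives changed the cell filters, the rank limit, the floor and the scaling (edgeR 4.0.16 in R 4.3.3 for TMM). Figures were drawn with matplotlib 3.10.9.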

Additional observations from a re-analysis of the deposited data

Results flagged for a closer look

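In 5 of the 285 list and named genes measured in both groups of cells (1.75%), the S100-high cells and the remaining neutrophils lay on opposite sides of 1 in the ratio of Gsdme-KO to WT, with intervals that did not hold 1 in either. Over all 3407 genes measured in both, 35 (1.03%) did so. With 1 library per genotype this difference was not tested. Ptafr, the receptor for platelet-activating factor, had a ratio of 1.14 (1.04 to 1.25) in S100-high cells and 0.875 (0.818 to 0.936) in the remaining neutrophils. Hif1a, the hypoxia-inducible transcription factor subunit, had ratios of 1.16 (1.00 to 1.34) and 0.794 (0.718 to 0.878). The other 3 were lower in the S100-high cells and higher in the remaining neutrophils. Itgb2, the beta chain of the leukocyte integrins, had ratios of 0.877 (0.772 to 0.996) and 1.14 (1.05 to 1.24), and Itgb1, the beta chain shared by matrix-binding integrins, had ratios of 0.769 (0.611 to 0.966) and 1.19 (1.06 to 1.33). Lyz2, lysozyme, had ratios of 0.910 (0.838 to 0.989) and 1.21 (1.15 to 1.26). Lyz2 stood at 10499.8 CPM in macrophage barcodes of the higher library, and the part of their RNA in these values was not tested.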

How the results depend on the processing

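No paired analysis was possible because each group is 1 library, and for the same reason no library could be left out. Of the counts and shares that answer a comparison, 66 values under an alternative lay within the set limits of the main value and 18 moved. The main values were 245 higher and 338 lower genes in Gsdme-KO. Thinning every cell to 500 UMIs gave 115 and 121, and dropping the floor gave 3377 and 3995. Ranking the neutrophils on a random part of their UMIs gave 162 and 188. Allowing no UMI of the C1q genes or Col3a1 gave 199 lower genes. Against 205 higher and 1450 lower genes over the remaining neutrophils, that setting gave 129 and 591, thinning gave 107 and 265, no floor gave 612 and 4500, and the middle-ranked neutrophils as the comparison gave 87 and 207. The lower count was 844 with the random part, 646 without cells holding at least 3 macrophage markers and 776 without cells holding over 2 MHC class II UMIs. Thinning, the random part and the stricter cells leave fewer UMIs and fewer genes past the floor; the other causes were not tested.

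Among single genes and lists 2494 values stayed within the limits, 314 moved and 18 reversed. In Gsdme-KO over WT, Rsad2 was at 1.24 with no C1q or Col3a1 UMI and 1.49 thinned, and Slc40a1 at 0.445 thinned. Over the remaining neutrophils, the type I interferon median in Gsdme-KO was 0.10 with no C1q or Col3a1 UMI, 0.19 thinned and 0.01 without macrophage-marker cells. The guanylate-binding median in Gsdme-KO was 0.16 with at least 4 of the 8 neutrophil genes required. The calprotectin and S100 median in WT was 0.27 with no C1q or Col3a1 UMI, and the cell cycle median in WT was 0.02 thinned. Against the middle-ranked neutrophils Msr1 was at 1.07 and Ccr2 at 1.53 in Gsdme-KO, and H2-Ab1 at 1.23 in WT. Without macrophage-marker cells Msr1 was at 1.41 in Gsdme-KO, Ms4a6c at 1.04 and AI504432 at 1.19 in WT, and Vcan at 2.52 in WT and 1.39 in Gsdme-KO. H2-Ab1 was at 1.02 in WT without MHC class II cells. The causes were not tested.

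Depth limits the genes with few UMIs: Gsdme, Ly6g, Padi4 and Camp had under 30 UMIs in both libraries.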
